A study of Mus musculus with 2 samples.

Results

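Apln tip-like capillary cells of mouse lymph nodes were chosen by their measured counts of unique molecular identifiers (UMIs) for 3 genes: Apln, which encodes the secreted peptide apelin, Prnd, which encodes the prion-like surface protein doppel, and Kit, the receptor for stem cell factor. A cell was a member if its summed UMIs of the 3 genes reached 2 and were above its sum of each of 5 other gene panels, which marked arterial, Penk Col13a1 capillary, Scgb3a1 capillary, Enpp2 transitional and venous cells. This held for 112 cells, of 5260 kept blood endothelial cells and of 9919 cells that passed the quality and hashtag filters. Kept cells had at least 3 UMIs of Flt1, Ly6c1 and Cd34 together, more of these than of the lymphatic genes Prox1, Pdpn, Mmrn1 and Lyve1, and under 20 UMIs of Glycam1, the mucin of high endothelial venules. Peripheral and mesenteric nodes were compared between 2 genotypes, labelled WT and Xbp1-KO, and mice of both received tamoxifen. Xbp1 is switched on by stress in the endoplasmic reticulum and drives genes of protein folding and secretion. The 4 groups carried 1 hashtag each and were captured together in 2 droplet libraries, so that every group had 2 pools of cells, 1 per library. The labels give neither the Cre driver or Xbp1 allele behind the knockout nor the number, age or sex of the animals in a pool, and the tissue protocol describes pooled peripheral nodes and removal of CD45-bearing blood cells before the sort.

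Vessels grow by sprouting from capillaries and venules. A tip cell leads each sprout along a gradient of vascular endothelial growth factor (VEGF), reads it through Kdr and Nrp1, and holds back its neighbours through Dll4 and Notch. Tip cells are known to make apelin, which acts on its receptor Aplnr on the cells behind, and to express Esm1, Angpt2, Pdgfb, Cxcr4, basement membrane proteins and the actin bundler Fscn1. Capillary cells with Apln have also been described in resting lymph nodes, where they can give rise to new endothelium.

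The choice of members rested on Apln (chrX:48025146-48034853, GRCm38), Prnd (chr2:131950861-131956130) and Kit (chr5:75574916-75656722), so their values are a description and carry no test. Apln had a UMI in 56 of the 112 members, and Prnd and Kit each had one in 75. All 3 genes were seen together in 21 members, 2 of them in 52 and a single one in 39. The panel sum had a median of 4 UMIs (quartiles 3 and 7, highest 31). Levels are given in CPM, UMIs of a gene per 1000000 UMIs of all genes in the sum of a pool's cells. In the 8 member sums, Apln ran from 161 to 960.1 CPM (median 513), Prnd from 346 to 828 CPM (median 574) and Kit from 114 to 486 CPM (median 416). Among the other named subsets, Enpp2 transitional cells had the highest mean over pools, with 9.36 CPM of Apln, 42.8 of Prnd and 109 of Kit. Summed over all cells of a subset, Apln read 10.0 CPM in Enpp2 cells, 11.2 CPM in venous cells (7 UMIs) and 11.7 CPM in kept cells of no subset. Outside the kept cells, Kit was seen in 20.6% of 1113 cells with 20 or more Glycam1 UMIs, at a median of 6674 UMIs per cell. Lymphatic cells had a UMI of Apln in 0.166%, of Prnd in 2.11% and of Kit in 5.49% of 3608 cells. Their median depth was 5524.5 UMIs, against 3409 in members. Whether these UMIs are background or low expression was not tested.

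At the edge of the rule, 26 members had a sum of exactly 2, and 17 kept cells with a sum of 1 and no UMI of another panel stayed outside. A further 328 kept cells had a sum of 2 or more that did not exceed another panel, and in 265 of them the Enpp2 panel led. Summed over each set, the genes of a tip and sprouting list stood at 7135 CPM in members with a sum of 2, 7637 CPM in members with 3 or more, 6251 CPM in the 17 cells with a sum of 1, 6908 CPM in the 328 cells and 6272 CPM in the 4185 kept cells with a sum of 0. Without the granule-gene member described below, members with 3 or more stood at 8142 CPM. For Cxcr4 the same 5 sets read 43.0, 181, 0, 72.7 and 30.3 CPM, and for Esm1 they read 258, 130.3, 126, 166 and 144 CPM. These sets are cut by the panel sum itself, the first pair differed in median depth (2547 and 3624.5 UMIs), and nothing is read from their differences.

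**Figure D1:**
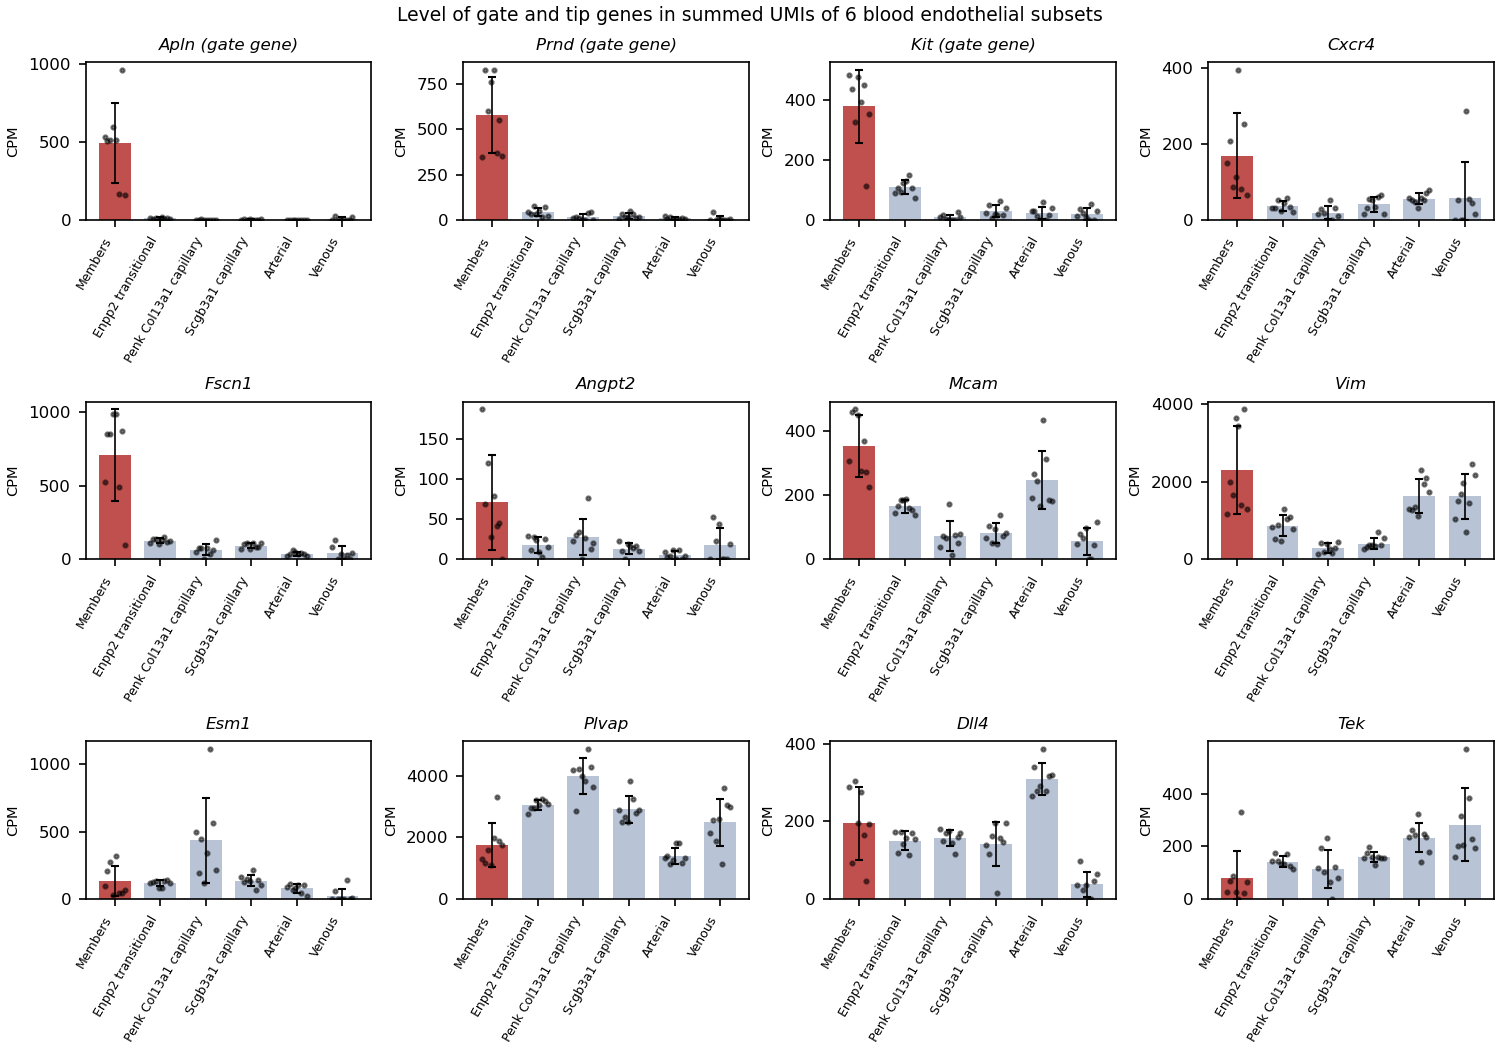
Level of the 3 gate genes and of 9 further genes in 6 blood endothelial subsets, in CPM of each pool's sum; bars are means, error bars SD and points the 8 pools. Apln, Prnd and Kit are high in members because they chose them, Cxcr4, Fscn1 and Mcam had their highest mean in members, and Esm1 and Plvap had it in Penk Col13a1 capillary cells.

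As a check of the label, all 8 pan-endothelial markers (Pecam1, Cdh5, Kdr, Tek, Tie1, Emcn, Eng and Erg) were detected in members, with a summed level of 3739 to 7062 CPM per pool against 5588 to 6364 CPM in all other kept cells. That level was higher in members in 1 of 8 pools. In the edgeR comparison described below, 4 of the 8 passed as lower in members, where 5.65% of all genes tested did, and none as higher (median log2 fold change -0.44, all genes -0.13). They were Tek (-1.40 ± 0.28), Eng (-0.86 ± 0.15), Kdr (-0.48 ± 0.14) and Pecam1 (-0.41 ± 0.13), of which Eng also passed with library 1 left out and the other 3 did not (-1.07 to -0.36). Pecam1 did not pass without the pool as a block either (-0.39), and with DESeq2 neither Pecam1 nor Kdr passed. All 8 markers of fibroblastic stroma and all 8 of mast cells, which also carry Kit, were at 0 UMIs. Of 9 pericyte and smooth muscle markers 3 had UMIs, with Acta2 and Notch3 at 0 (summed over the list, 0 to 141 CPM per pool, against 27.7 to 213 CPM in the other cells). Of 8 lymphatic markers 5 had UMIs (0 to 207 CPM against 135 to 1358 CPM), but 4 of the 8, Prox1, Lyve1, Pdpn and Mmrn1, are in the rule for kept cells and check nothing here. Of the other 4, Reln and Thy1 were at 0, and Ccl21a, a chemokine that high endothelial cells also make, stood at 43.8 ± 44.1 CPM against 569.7 ± 435 CPM in the other cells, most of the summed level there. Myeloid markers had UMIs of 4 of 8, with Itgam and Adgre1 at 0 (0 to 224 CPM against 1.93 to 69.9 CPM), and megakaryocyte markers of 3 of 7, with Ppbp at 0 (0 to 123 CPM against 13.9 to 36.5 CPM). The lymphocyte list had UMIs of 2 of 8 markers, with Ptprc and Cd3e at 0 (22.9 to 1724 CPM against 133 to 230.1 CPM). Its highest pool, WT mesenteric of library 2, owed 41 of its Cd74 UMIs to 1 cell, which also held 12 UMIs of H2-Aa, 9 of Pecam1 and 5 of Cdh5. The part of these other markers in the results was not tested.

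In 1 member, pan-endothelial markers were nearly absent. In the WT peripheral pool of library 1, a cell of 23924 UMIs, 22.4% of that pool's member UMIs, carried 199 UMIs of Prtn3, 128 of Mpo, 118 of Ctsg and 72 of Elane, which encode granule proteins of neutrophil precursors. It entered through 6 UMIs of Kit and 5 of Cd34 and had 1 UMI of Eng and none of the other 7 pan-endothelial markers. It was kept in the main fits, because the rule takes it, and each count was also computed without the 4 kept cells that held 3 or more UMIs of these granule genes (1 member and 3 others), a check chosen after the data were seen. Without them, 485 of 5958 genes passed against all other kept cells in place of 495 of 6196, and 448 passed both times. The other 111 members held UMIs of 2 or more pan-endothelial markers each. Among them 5, all in WT pools, had 1 to 3 UMIs of the lymphatic regulator Prox1, beside 14 to 63 UMIs of pan-endothelial markers, and none had a UMI of Ptprc, Pdgfrb or Pdgfra.

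Depth and sex also differed between the sums. The libraries held 33024170 and 14744778 gene UMIs, and the member sums ran from 24356 UMIs (7 cells) to 106992 UMIs (22 cells), which bounds what single pools can show. The libraries shared 3 cell barcodes, none of them a member's. The female transcript Xist read 0 CPM in the WT pools of library 1 and the Xbp1-KO pools of library 2, and 452 to 749 CPM in the other 4, so that sex was reversed between the genotypes from library to library.

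The first comparison asked how members differed from all 5148 other kept blood endothelial cells of the same pools. The 28 genes named in the rule were left out of the test, yet the rest were counted in the same cells that the rule chose, and it bars cells led by another panel, so genes that go with those panels stand lower in members partly by construction. The 3-gene panel was also proposed, and the gene lists chosen, with results of these libraries known. The list counts below are therefore no independent check of the tip-like label. Of 6196 genes tested, 145 were higher in members (2.34%) and 350 lower (5.65%) at an edgeR adjusted p under 0.05, and 194 of these 495 moved the same way in all 8 pools. The median log2 fold change of all genes tested was -0.13. Each list count of this comparison below is to be set beside these shares of all genes, 2.34% higher and 5.65% lower.

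Genes linked to tip cells and sprouting made up a list of 27, of which 25 were tested: 13 passed as higher and 5 as lower, with a median log2 fold change of 1.06. Fscn1, the actin bundler of filopodia (chr5:142960343-142973185), ran from 96.4 to 986 CPM (median 851) in members and from 90.3 to 120.4 CPM (median 112) in all other cells. Members were higher in 7 of 8 pools, with Xbp1-KO mesenteric of library 2, at 96.4 CPM, as the exception, and the log2 fold change was 2.57 ± 0.16 (SE, adjusted p = 4.07e-52). Cxcr4, the receptor for the chemokine Cxcl12 (chr1:128588199-128592293), stood at 64.3 to 394 CPM (median 131) in members and 25.5 to 50.3 CPM (median 35.1) in the others, and no member sum fell within the range of the other cells. It was higher in 8 of 8 pools by 2.05 ± 0.27 on the log2 scale (adjusted p = 1.15e-11). The secreted factors Adm, a vasodilator peptide, and Angpt2, the antagonist ligand of Tek, were low in absolute level, with 37 and 43 UMIs over all members. Adm reached 81.1 ± 46.8 CPM against 14.8 ± 3.43 CPM (log2 fold change 2.36 ± 0.35, adjusted p = 1.63e-09) and Angpt2 71.2 ± 58.9 CPM against 18.2 ± 4.68 CPM (2.12 ± 0.33, adjusted p = 1.14e-08). Both were higher in 7 of 8 pools.

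Adhesion, matrix and signalling genes of the list followed. Mcam, the cell adhesion molecule CD146, ran from 225 to 469 CPM (median 339) in members against 109 to 171 CPM (median 148) and was higher in every pool (log2 fold change 1.26 ± 0.18, adjusted p = 6.12e-10). Nes, an intermediate filament, rose by 1.13 ± 0.24, Arhgap18, a GTPase-activating protein, by 1.12 ± 0.20, Lxn, a carboxypeptidase inhibitor, by 1.31 ± 0.23 and Trp53i11 by 1.57 ± 0.19. Smad1, which relays BMP signals, rose by 1.06 ± 0.19, and Pdgfb, the growth factor that recruits pericytes, by 0.54 ± 0.15, from 464 ± 58.7 CPM to 742 ± 146 CPM. The laminin chain Lamb1 and the basement membrane protein Nid2 are given below with the matrix genes. Library 1 carried 82 of the 112 members. With library 1 left out, 4 of 23 tested genes of the list passed as higher and 2 as lower, beside 0.373% and 1.81% of all 6173 genes tested. Adm and Angpt2, at 9 and 5 UMIs in the members of library 2, were too low there to be tested, and Mcam, Nes, Arhgap18, Lxn, Trp53i11, Smad1 and Pdgfb did not pass (log2 fold changes of 0.39 to 0.96, adjusted p of 0.186 to 0.891).

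Not all classical tip genes moved this way. Esm1, a proteoglycan often used as a tip marker, stood at 133 ± 114 CPM in members and 143 ± 43.9 CPM in the others (log2 fold change -0.15 ± 0.23, adjusted p = 0.825), and members were higher in 3 of 8 pools. Dll4, the Notch ligand of tip cells, read 195 ± 93.8 CPM against 164 ± 11.2 CPM (0.14 ± 0.21, adjusted p = 0.810). The fold changes of Unc5b, Robo4, Marcksl1, Cotl1 and Plaur lay between 0.27 and 1.09 and did not pass. Pgf had 9 UMIs in 5 of 112 members and was too low to be tested. Lower in members were Plvap, the protein of fenestral diaphragms, with 1760.2 ± 712 CPM against 2737 ± 192 CPM (-0.87 ± 0.13, adjusted p = 5.36e-10), the adrenomedullin co-receptor Ramp3 (-1.65 ± 0.36), the endothelin receptor Ednrb (-1.31 ± 0.32), Igfbp3 (-0.70 ± 0.15) and the transcription factor Ets1 (-0.54 ± 0.18, adjusted p = 0.0402, which rose to 0.0631 without the granule-gene cells). Fitted on library 2 alone, Ramp3, Ednrb and Ets1 did not pass (log2 fold changes of -1.76 to -0.75), with library 1 alone Ets1 and Igfbp3 did not, and Igfbp3 did not pass without the pool as a block.

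**Figure D2:**
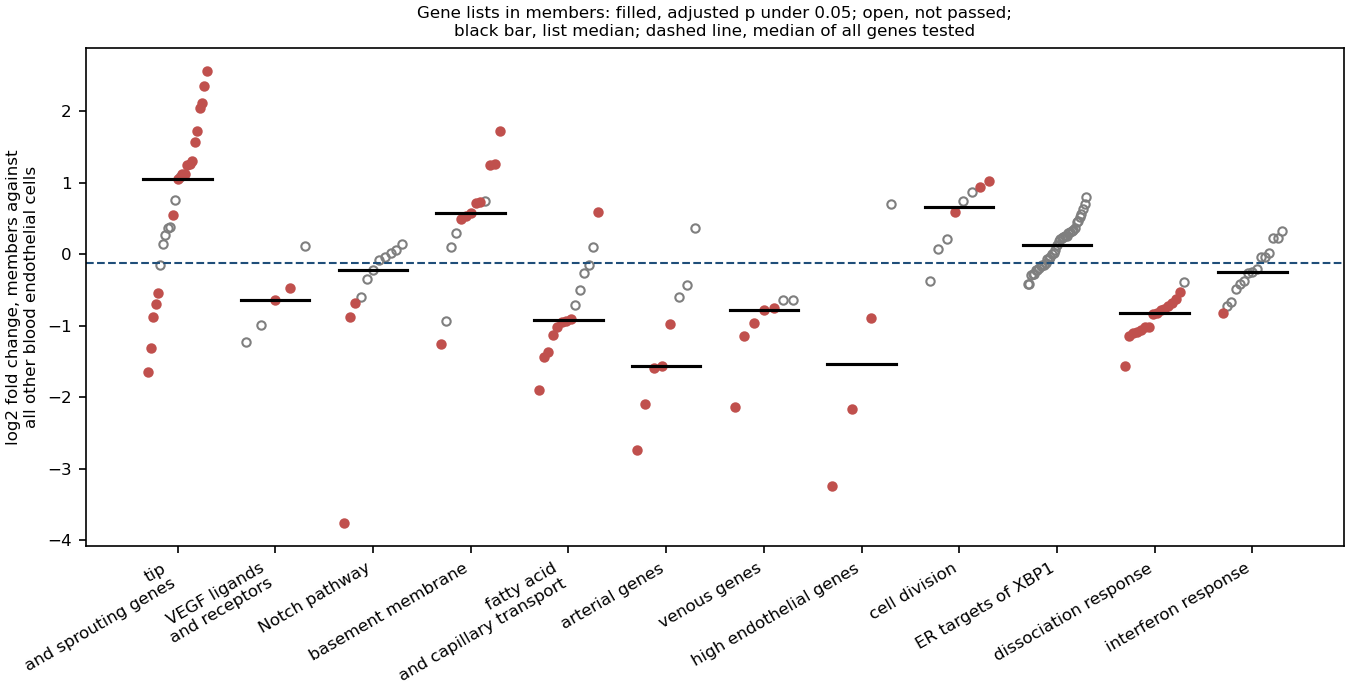
Log2 fold change of each gene of 12 lists, members against all other kept blood endothelial cells; filled points passed an edgeR adjusted p under 0.05, open points did not, black bars are list medians and the dashed line is the median of all genes tested. Tip and sprouting genes spread from -1.65 to 2.57 around a median of 1.06, and 15 of 16 dissociation response genes are filled and below 0; Mgp, at 0 UMIs in members, is left out.

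The genes with the largest fold changes among those higher in every pool lay mostly outside that list. Lcp2 (chr11:34046920-34092295), the SLP-76 adaptor known from T cell receptor and platelet signalling, ran from 32.1 to 164 CPM (median 87.9) in members and from 7.73 to 16.4 CPM (median 10.3) in the other cells, with no overlap (log2 fold change 2.93 ± 0.34, adjusted p = 1.11e-15). Nos2, the inducible nitric oxide synthase, ran from 32.1 to 394 CPM (median 146) against 12.6 to 37.0 CPM (median 27.0) (2.42 ± 0.30, adjusted p = 6.02e-14), with an overlap at the lowest member sum. Il4i1, a secreted amino acid oxidase, stood at 120.0 ± 81.6 CPM against 30.1 ± 10.2 CPM (1.78 ± 0.31, adjusted p = 8.89e-07). Msmp, a chemokine-like secreted protein, reached 99.1 ± 91.6 CPM against 14.7 ± 4.53 CPM (2.56 ± 0.33), and the tubulin gene Tubb6 106 ± 56.0 CPM against 20.6 ± 4.64 CPM (2.46 ± 0.31). These 5 genes rest on 43 to 69 UMIs in members.

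Further genes higher in every pool included more abundant ones. Tmsb10, an actin-binding thymosin, stood at 3957 ± 1464 CPM in members against 1135 ± 105 CPM in all other cells (log2 fold change 1.59 ± 0.12, adjusted p = 1.14e-34). Its lowest member sum lay above the highest sum of the other cells. Sox4, a transcription factor of immature cells, ran from 123 to 739 CPM (median 418) in members and from 119 to 144 CPM (median 129) in the others (1.51 ± 0.18). Pxdn, the peroxidase that cross-links collagen IV, rose by 1.75 ± 0.21, the G protein subunit Gnb4 by 1.58 ± 0.21 and Ubtd1 by 1.78 ± 0.37. Without library 1, Lcp2, Nos2, Cxcr4, Pxdn, Tmsb10 and Sox4 still passed, and Msmp, Tubb6, Il4i1, Ubtd1 and Gnb4 did not (log2 fold changes of 0.90 to 1.77, adjusted p of 0.0558 to 0.346).

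**Figure D3:**
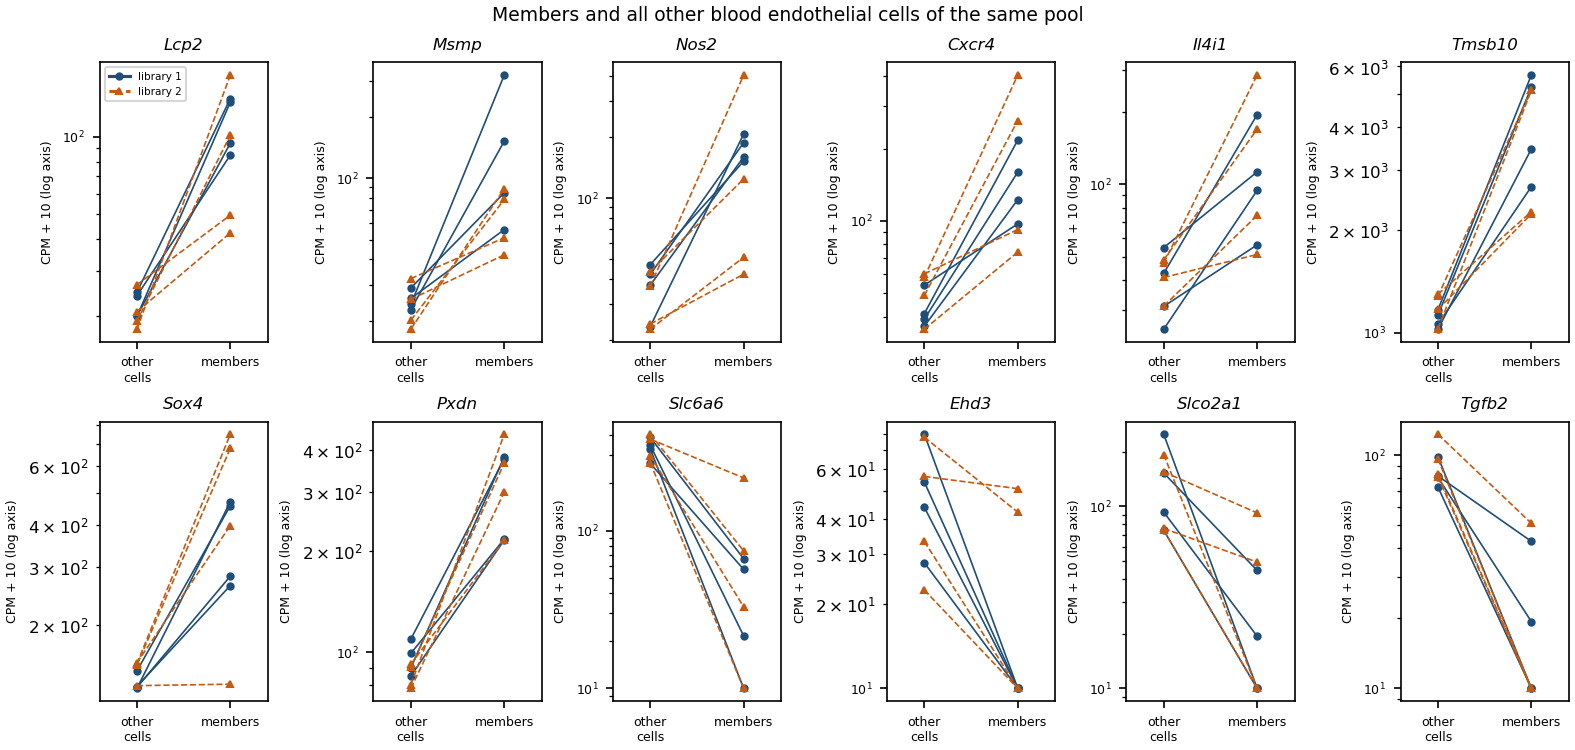
Level in CPM plus 10, on a log axis, in the sum of members and in the sum of all other kept blood endothelial cells of the same pool, joined by a line, for 12 genes; circles and solid lines are library 1, triangles and dashed lines library 2. The first 8 genes are higher in members and the last 4 lower in each of the 8 pools, with Sox4 nearly level in 1 pool of library 2.

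Partners of the gate genes went both ways, and the VEGF and Notch pathways did not follow the tip list. Of 3 tested partners of apelin and KIT, 1 passed as higher, whose values are not given here, and 1 as lower (median 0.29). Against Penk, Scgb3a1 and Enpp2 cells, compared below, 1, 2 and 0 of the 3 passed as higher and 1 as lower each time. Kitl, the ligand of Kit, ran from 137 to 354 CPM (median 235) in members against 362 to 458 CPM (median 398) in the others and was lower in 8 of 8 pools (-0.94 ± 0.18, adjusted p = 1.61e-05). Aplnr, the apelin receptor, stood at 313 ± 107 CPM against 223 ± 36.0 CPM and did not pass (0.29 ± 0.18, adjusted p = 0.419). Of 5 tested genes among VEGF ligands and receptors, 2 passed, both lower: the VEGF receptor Kdr, with 889 ± 132 CPM against 1103 ± 162 CPM (-0.48 ± 0.14, adjusted p = 0.0109), and its co-receptor Nrp1 (-0.64 ± 0.16, adjusted p = 0.00162). The angiopoietin receptor Tek read 78.5 ± 105 CPM against 161 ± 21.9 CPM (-1.40 ± 0.28, adjusted p = 2.22e-05), while its ligand Angpt2 was higher, as given above. In library 2 alone, Kdr, Nrp1 and Tek did not pass (log2 fold changes of -1.07 to -0.46).

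Among 11 tested Notch pathway genes none passed as higher and 3 as lower. The receptor Notch1 fell by 0.68 on the log2 scale (SE 0.21, adjusted p = 0.0175). The ligand Jag2 stood at 74.7 ± 50.7 CPM against 122 ± 14.2 CPM (-0.88 ± 0.28, adjusted p = 0.0294). The ligand Dll1 had 1 UMI in members and 494 in the other cells, a ratio of 0.0755 in summed CPM with a 95% counting interval of 0.00191 to 0.422. None of the 3 passed with library 2 alone, nor Jag2 with library 1 alone.

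Basement membrane genes leaned upwards: 8 of 13 tested passed as higher and 1 as lower, with a median of 0.58. Of all genes tested, 2.34% were higher and 5.65% lower. Lamb1 and Nid2 are also in the tip and sprouting list, so the counts of both lists are not separate. Col4a1, an abundant collagen IV chain, ran from 2149.7 to 3382 CPM (median 2877) in members and from 1317 to 1745 CPM (median 1472) in the others, with no overlap (log2 fold change 0.72 ± 0.12, adjusted p = 2.48e-07). Its partner Col4a2 rose by 0.50 ± 0.13 and the matrix protein Sparc by 0.53 ± 0.12, to 3731 ± 822 CPM. Nid2, a linker of laminin and collagen IV, stood at 147 ± 119 CPM against 37.3 ± 10.9 CPM (1.73 ± 0.29, adjusted p = 1.56e-07). The laminin chains Lama4 (1.27 ± 0.20), Lamb1 (1.25 ± 0.22) and Lamc1 (0.73 ± 0.20) were higher, while the alternative beta chain Lamb2 was lower, with 67.7 ± 32.2 CPM against 129 ± 17.0 CPM (-1.25 ± 0.30, adjusted p = 7.75e-04). With library 1 left out, 4 of 12 tested genes of the list passed as higher (0.373% of all genes tested), while Col4a2, Sparc, Lamc1 and Lamb2 did not pass (log2 fold changes of -0.78 to 0.57).

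Transport genes of mature capillaries were mostly lower: of 14 tested, 1 passed as higher and 8 as lower, with a median of -0.92. Fabp4, a fatty acid binding protein, ran from 552 to 7498 CPM (median 2804) in members and from 3609 to 9053 CPM (median 5801) in the others, so that the ranges overlapped, and was lower in 7 of 8 pools (-1.37 ± 0.13, adjusted p = 8.55e-25). The water channel Aqp1 fell to 1042 ± 462 CPM from 1725 ± 227 CPM, and Car4, a membrane carbonic anhydrase, to 64.7 ± 56.4 CPM from 149 ± 39.4 CPM. Slc9a3r2 (-1.12 ± 0.17) and the caveolar protein Cavin2 (-1.02 ± 0.17) were lower as well. The exception was Gpihbp1, the capillary anchor of lipoprotein lipase, with 1734 ± 641 CPM against 1021 ± 152 CPM (0.59 ± 0.13, adjusted p = 1.90e-04), which did not pass with library 2 alone (0.35), nor did Car4 (-1.44) or Cavin2 (-0.89).

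Genes of other vessel types were lower. The rule bars cells led by the arterial and venous panels, and how much of the fall this gives was not tested. Of 9 tested arterial genes, 6 passed as lower and none as higher, with a median of -1.56. Penk, Scgb3a1 and Enpp2 cells hold no cells led by the arterial panel either. Against them, 3 of 3, 3 of 3 and 4 of 8 arterial genes passed as lower and none as higher (17.5%, 13.1% and 6.1% of all genes lower). The summed list stood at 1531 CPM in members and at 5380, 4015 and 2563 CPM in those subsets, with members higher in 0 of 8 pools each time. Mgp, a matrix protein of arteries, had no UMI among 445744 in members and 1203 in the other cells, which puts it at least 10.8-fold lower against a floor of 3 UMIs over all members. Gja4, an arterial connexin, stood at 31.9 ± 32.0 CPM against 141 ± 53.0 CPM (-2.09 ± 0.35), Efnb2 at 70.9 ± 50.0 CPM against 206 ± 26.5 CPM (-1.59 ± 0.26), and the chemokine Cxcl12, ligand of Cxcr4, at 1004 ± 623 CPM against 2359 ± 225 CPM (-1.56 ± 0.14, adjusted p = 4.57e-27). Venous genes gave 5 of 7 as lower, led by Lrg1 (-2.14 ± 0.24) and Ehd4 (-1.14 ± 0.18), and high endothelial genes 3 of 4. Ccl21a, the chemokine of high endothelium, read 43.8 ± 44.1 CPM against 569.7 ± 435 CPM (-3.24 ± 0.25), a value that is uncertain because near-identical Ccl21 copies can share reads. Fitted on library 2 alone, Ehd4 did not pass (-0.81).

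Among the other genes lower in all 8 pools with the largest changes, Slc6a6, the taurine transporter, ran from 0 to 205 CPM (median 34.8) in members and from 256 to 397 CPM (median 328) in the others (-3.21 ± 0.29, adjusted p = 6.28e-26). Slco2a1, a prostaglandin transporter, read 20.7 ± 29.7 CPM against 123 ± 65.3 CPM, the growth factor Tgfb2 10.4 ± 16.8 CPM against 79.6 ± 16.0 CPM, the elastic fibre proteins Eln and Fbln2 9.25 ± 12.9 CPM against 58.0 ± 19.5 CPM and 34.0 ± 34.1 CPM against 257 ± 87.3 CPM, and Sncg 26.9 ± 18.6 CPM against 142 ± 26.6 CPM. Alpl, an alkaline phosphatase, had no UMI in members and was at least 4.09-fold lower by the same floor. Ckb (1 UMI), Ehd3 (2 UMIs) and Ptprr (2 UMIs) had ratios to the other cells of 0.0596, 0.114 and 0.143 in summed CPM, with counting intervals of 0.00151 to 0.334, 0.0137 to 0.412 and 0.0173 to 0.520. Without library 1, Eln, Alpl, Ehd3 and Ptprr did not pass.

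Counted over all pools, cells with transcripts of the cell cycle made up a larger share of members than of the other cells. Mki67 or Top2a, which mark the cell cycle, had a UMI in 7 of 112 members (6.25%, 95% exact binomial interval 2.55% to 12.5%) and in 38 of 5148 other kept cells (0.738%, 0.523% to 1.01%). Without the granule-gene cell the share was 6 of 111 (5.41%), and it was 3.70% in library 1 and 10.0% in library 2, against 0.824% and 0.553% of the other cells. All these members lay in peripheral pools. Without cells holding such a UMI, the peripheral pools went from 22 to 20 (WT) and 24 to 22 members (Xbp1-KO) in library 1. In library 2 they went from 6 to 4 and from 9 to 8. The mesenteric pools kept all members (25 and 11 in library 1, 7 and 8 in library 2). Kept cells there fell from 1150 to 1137, 435 to 433, 293 to 290 and 610 to 607, in the same order. Median depth was 3409 UMIs in members and 2748 in the others. Every cell was also thinned to 2000 UMIs, with shallower ones left out (14 members and 1318 others). The share was then 3 of 98 (3.06%, 0.636% to 8.69%) against 24 of 3830 (0.627%, 0.402% to 0.931%), and the intervals overlapped. All these intervals treat single cells as independent and leave out the spread between pools. The difference in share was not tested over pools. Of 8 tested cell division genes 3 passed as higher and none as lower (median 0.67): Hmgb2 (1.03 ± 0.18), H2afz (0.94 ± 0.15) and Tubb5 (0.59 ± 0.16). None of the 3 passed once cells with Mki67 or Top2a were left out (log2 fold changes of 0.16 to 0.49) or with library 2 alone (0.62 to 0.82), and Tubb5 passed with neither library alone. In the WT peripheral pool of library 1, Hmgb2 read 514 CPM with the granule-gene cell and 181 CPM without it.

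Immediate early and heat shock genes, which rise when tissue is digested, were lower in members: 15 of 16 tested passed as lower and none as higher, with a median of -0.82. Summed, they stood at 20681 ± 13534 CPM in members and 31838 ± 10009 CPM in the other cells and were lower in all 8 pools. Enpp2 transitional cells stood at 27221 CPM and venous cells at 26581 CPM, with members higher in 1 of 8 pools each. Arterial, Scgb3a1 and Penk cells stood at 32455, 36298 and 41787 CPM. In the comparison with Enpp2 cells given below, 10 of 16 passed as lower (6.1% of all genes) and none as higher, with a median of -0.55. Fos ran from 1149.6 to 8036 CPM (median 2579.8) in members against 3458 to 8315 CPM (median 5053) (-1.02 ± 0.12, adjusted p = 1.25e-14), Nr4a1 stood at 208 ± 172 CPM against 547 ± 183 CPM (-1.56 ± 0.19), Egr1 at 1350.3 ± 1137 CPM against 2309.8 ± 679 CPM and Jun at 3569.6 ± 2153 CPM against 5131 ± 1282 CPM. Without the pool as a block, Egr1, Jun and Hspa1a did not pass (adjusted p of 0.0624 to 0.387). The pools spread widely, and the Xbp1-KO mesenteric pool of library 2 held the highest member level, 53486 CPM. None of 37 tested endoplasmic reticulum targets of XBP1 passed in either direction (median 0.13), and of 15 interferon response genes 1 passed, as lower (median -0.25). Xbp1 itself stood at 211 ± 150.3 CPM in members and 156 ± 56.9 CPM in the others (0.22 ± 0.21, adjusted p = 0.660).

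A further 3 comparisons set members beside single subsets: 403 Penk Col13a1 capillary cells, 876 Scgb3a1 capillary cells and 1722 Enpp2 transitional cells, the last added after the neighbours of members had been seen. All share the member sums, so they are not independent of each other or of the comparison above, and their values are given side by side. Against Penk Col13a1 cells, 120 of 1059 tested genes were higher in members (11.3%) and 185 lower (17.5%). Against Scgb3a1 cells, 170 of 1480 were higher (11.5%) and 194 lower (13.1%), and against Enpp2 transitional cells, 160 of 3277 were higher (4.88%) and 200 lower (6.1%). Without the granule-gene cells the totals were 292, 306 and 341 in place of 305, 364 and 360.

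Against Penk Col13a1 capillary cells, the largest rise was in Cldn5, the tight junction claudin of endothelium. It ran from 393 to 1257 CPM (median 712) in members and from 0 to 289 CPM (median 56.3) in the Penk cells, and was higher in every pool (log2 fold change 3.31 ± 0.32, adjusted p = 1.73e-07). Vim, the intermediate filament vimentin, stood at 2304 ± 1141 CPM against 293 ± 126 CPM (2.89 ± 0.21, adjusted p = 5.94e-09) and Mcam at 354 ± 96.5 CPM against 72.2 ± 47.2 CPM (2.50 ± 0.25). Tmsb10, Pxdn, Nudt4, Arhgap18, Upp1, Sox4, Smad1 and Sh3bp5 were also among those with the largest rise, between 1.51 and 2.35. Of 11 tested tip and sprouting genes, 3 were higher and 3 lower (median 0.20, against 0.00 for all genes). Summed over all 27 genes, the list stood at 8289 ± 1672 CPM in Penk cells and 7624 ± 1004 CPM in members, which were higher in 2 of 8 pools. Plvap made up 3991 CPM of that sum in Penk cells and 1760.2 CPM in members. The summed level was 6496 ± 479 CPM in Scgb3a1 cells and 6776 ± 254 CPM in Enpp2 cells, with members higher in 7 and 5 of 8 pools. Beside Penk cells Esm1 was lower in members, with 133 ± 114 CPM against 435 ± 316 CPM (-1.55 ± 0.33, adjusted p = 0.00132), as were Plvap (-1.30 ± 0.13), Kdr (-1.16 ± 0.15) and Nrp1 (-1.65 ± 0.17, 433 ± 135 CPM against 1361 ± 474 CPM).

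Of the genes with the largest falls against Penk Col13a1 cells, Rbp7, a gene of capillary endothelium, read 236 ± 234 CPM against 1419 ± 298 CPM (-2.80 ± 0.28), the lipid phosphatases Plpp1 and Plpp3 138 ± 116 CPM against 851 ± 244 CPM and 719.9 ± 350.0 CPM against 3884 ± 803 CPM, and the phospholipid transfer protein Pltp 154 ± 100.4 CPM against 781 ± 163 CPM. Lifr, Slc6a6, Cd24a, Ehd4, Cxcl12, Nr4a1, Podxl and Itm2a were also among the 12, with log2 fold changes of -2.74 to -2.20. Gpihbp1 and Aqp1 were higher in members (1.15 ± 0.17 and 1.21 ± 0.29), so that 2 of 8 transport genes rose and 2 fell. Basement membrane genes gave 5 of 8 higher and none lower, Col4a1 by 1.07 ± 0.12. The Penk cells of WT mesenteric in library 1 held 8197 CPM of fibroblastic stroma markers, against at most 58.1 CPM in the other pools, and with that pool left out, a check added after the data were seen, 244 of 875 genes passed and Col4a1 stood at 1.11. The 3 endoplasmic reticulum targets that passed as higher, Manf, Sec61b and Ssr4, of 10 tested, did not pass without the granule-gene cells, nor did any other gene of that list. Dissociation response genes gave 15 of 16 lower. In library 2 alone, 22 of 560 tested genes were higher (3.93%) and 44 lower (7.86%), none of 6 tested tip genes was higher and 2 were lower, and Gpihbp1 (1.01) and Aqp1 (1.33) did not pass.

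Beside Scgb3a1 capillary cells, 8 of 15 tested tip and sprouting genes were higher in members and 1 lower (median 0.69, all genes 0.02). Fscn1 stood at 707 ± 311 CPM against 93.8 ± 19.1 CPM (2.83 ± 0.23, adjusted p = 3.93e-09), Mcam at 354 ± 96.5 CPM against 82.8 ± 29.9 CPM (2.14 ± 0.20), Lxn rose by 1.48 ± 0.27, Trp53i11 by 1.29 ± 0.21 and Lamb1 by 1.27 ± 0.25. The largest changes included Vim (2304 ± 1141 CPM against 409 ± 144 CPM, 2.40 ± 0.21), Pxdn (2.08 ± 0.22), Gnb4 (1.89 ± 0.25) and the actin regulators Actr3 (1.38 ± 0.23) and Rhoc (1.38 ± 0.17). All 8 tested basement membrane genes were higher and none lower. Lower genes included Slc6a6 (-2.94 ± 0.36), Rbp7 (-2.52 ± 0.25), Pltp (-2.26 ± 0.22), the carbonic anhydrase Car4 (64.7 ± 56.4 CPM against 197 ± 70.7 CPM, -1.77 ± 0.28), the junction protein Jam2 (-1.80 ± 0.25) and the hormone-sensitive lipase Lipe (-1.55 ± 0.32). Of 11 transport genes 6 were lower and none higher, among them Fabp4 (-1.23 ± 0.18) and the fatty acid receptor Cd36 (-1.07 ± 0.15). With library 1 left out, 25 of 795 tested genes were higher (3.14%) and 19 lower (2.39%), 1 of 6 tested tip genes was higher, and Jam2, Fabp4 and Cd36 did not pass (-1.23 to -0.79). Of 15 tested endoplasmic reticulum targets of XBP1, 3 passed as higher and none as lower (median 0.48), beside 11.5% and 13.1% of all genes. Without the granule-gene cells Lxn did not pass, nor did Sec61g and Ssr4 of these targets.

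Enpp2 transitional cells were the subset whose share among the neighbours of members was above its share of kept cells in both libraries. Among the 15 nearest neighbours of each cell, computed within each library without the genes of the rule, Enpp2 cells made up 39.0% of the neighbours of members in library 1 and 43.3% in library 2, against 32.7% and 32.8% of kept cells. Members made up 25.9% of the neighbours of members in library 1, against 2.28% of kept cells, and 6.89% in library 2, against 1.81%. In library 1, 20 of 82 members had no member among their neighbours, and in library 2, 13 of 30. As other genes choose neighbours in the same cells, this describes the members and tests nothing.

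Against these cells 11 of 22 tested tip and sprouting genes were higher and 3 lower (median 0.80, all genes 0.00). Cxcr4 stood at 169 ± 112 CPM against 36.7 ± 13.1 CPM (2.11 ± 0.28, adjusted p = 1.13e-07). Ackr3, the scavenger receptor that shares the ligand Cxcl12, ran from 32.1 to 164 CPM (median 125) in members and from 23.8 to 47.9 CPM (median 29.5) in Enpp2 cells and was higher in 8 of 8 pools (1.84 ± 0.28, adjusted p = 2.63e-06). Cldn5 read 716 ± 262 CPM against 187 ± 62.4 CPM (1.83 ± 0.18), Pdgfb 742 ± 146 CPM against 369 ± 64.3 CPM (0.97 ± 0.14), and the phosphatase Ptp4a3 rose by 1.70 ± 0.19, Nes by 1.56 ± 0.27 and Vim by 1.30 ± 0.16. The Notch target Hes1 was higher as well (0.66 ± 0.17, adjusted p = 0.00734), in 5 of 8 pools. Transport genes split, with 4 of 11 higher and 3 lower: Gpihbp1 rose by 1.16 ± 0.14 and Cd36 by 0.70 ± 0.20, while Aqp1 fell to 1042 ± 462 CPM from 2478 ± 354 CPM. Large falls were seen in Ccl21a (-4.42 ± 0.31), Slc6a6 (-3.05 ± 0.32), Lrg1 (67.7 ± 43.8 CPM against 486 ± 177 CPM, -2.59 ± 0.25), the apolipoprotein Apoe (415 ± 311 CPM against 2302 ± 1008 CPM, -2.58 ± 0.15), the desmosomal cadherin Dsg2 (-2.31 ± 0.31) and the angiotensin-converting enzyme Ace (-2.29 ± 0.30). Fitted on library 2 alone, 12 of 2980 tested genes were higher (0.403%) and 14 lower (0.47%), 2 of 20 tip genes among the higher, and Pdgfb, Nes, Hes1, Gpihbp1, Cd36 and Dsg2 did not pass (-1.96 to 0.97).

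Several genes stood on the same side in each comparison. Slc6a6 had log2 fold changes of -3.21, -2.74, -2.94 and -3.05 against all other, Penk, Scgb3a1 and Enpp2 cells. Those of Pxdn were 1.75, 2.33, 2.08 and 1.83, and of Tmsb10 1.59, 2.35, 1.74 and 1.58. Those of Kitl were -0.94, -0.94, -0.92 and -0.63, and of Plvap -0.87, -1.30, -0.80 and -0.93. Kitl and Plvap did not pass against Scgb3a1 or Enpp2 cells with library 2 alone, nor Kitl against Penk cells, and Kitl did not pass against Enpp2 cells with library 1 alone either. Aqp1 changed sign, at 1.21 against Penk cells and -1.37 against Enpp2 cells.

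Split by a UMI of each gate gene, the members gave the following values. The split uses the values that chose the cells, and detection of a gene follows depth, so these are a description with no test. They leave out the granule-gene cell and set cells of the same library side by side. Members with a UMI of Prnd (54 in library 1 and 21 in library 2) and members without one (27 and 9) held the tip and sprouting list at 8855 against 6762 CPM in library 1 and 8108 against 5204 CPM in library 2. Mcam stood at 531 against 231 CPM and 340.1 against 119.6 CPM, Fscn1 at 873 against 682 CPM and 779 against 209 CPM, and Lcp2 at 142 against 34.7 CPM and 109.7 against 0 CPM. Cldn5 was at 560.0 against 705 CPM and 691 against 1406 CPM. Median depth was 3468 against 2458 UMIs in library 1 and 3926 against 3247 in library 2, and its part in these differences was not tested.

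The same split by Apln set 44 members beside 37 in library 1 and 12 beside 18 in library 2, at median depths of 3498 against 3005 UMIs and 4015.5 against 3249.5 UMIs. With a UMI of Apln, Nos2 read 225 CPM against 95.8 CPM without one in library 1 and 225 against 59.9 CPM in library 2 (13 and 4 UMIs), while the tip list stood at 8268 against 8211 CPM and 7177 against 7459.9 CPM. Adm read 143 against 17.4 CPM in library 1 and 69.2 against 74.9 CPM in library 2. By Kit, Cxcr4 stood at 175 CPM with and 80.1 CPM without a UMI in library 1 (39 and 6 UMIs), and at 401 and 15.4 CPM in library 2 (24 and 1 UMIs). In library 2 those UMIs lay in 40.0% of the 15 members with Kit and 6.67% of the 15 without. Esm1 stood at 144 and 294 CPM in library 1 and 117 and 92.7 CPM in library 2.

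No difference between groups in the share of members among kept blood endothelial cells was detectable with these pools. The share was 1.98% and 2.28% in the WT peripheral pools of libraries 1 and 2, 2.17% and 2.39% in WT mesenteric, 2.65% and 1.83% in Xbp1-KO peripheral and 2.53% and 1.31% in Xbp1-KO mesenteric. The exact 95% binomial intervals, which cover counting error only, overlapped between all pools, the widest running from 0.842% to 4.90%. Xbp1-KO pools averaged 2.08% ± 0.63 and WT pools 2.21% ± 0.18 (SD, n = 4), a difference of -0.12 percentage points with the knockout higher in 2 of 4 library and tissue pairs (two-sided exact permutation test, p = 0.75). Peripheral pools averaged 2.19% ± 0.37 and mesenteric pools 2.10% ± 0.55, a difference of 0.0847 percentage points, higher in 2 of 4 pairs (exact permutation p = 0.75). With 4 pairs the smallest p this test can give is 1 in 8. With a panel sum of at least 3 in place of 2, peripheral pools were higher in 4 of 4 pairs, by 0.22 points (1.68% ± 0.26 against 1.46% ± 0.37), which gives that smallest p, while the other alternatives gave 0.0837 points or less, down to -0.30, with both libraries in. Library 1 alone gave the knockout a difference of 0.52 points and library 2 alone one of -0.76.

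**Figure D4:**
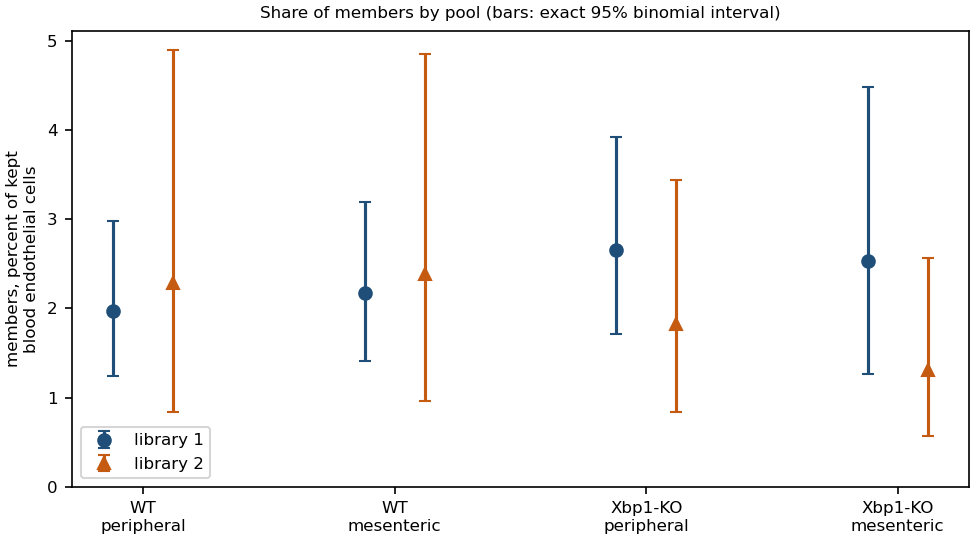
Members as a percentage of the kept blood endothelial cells of each pool, by genotype and tissue; circles are library 1, triangles library 2, and bars are exact 95% binomial intervals. All 8 shares lie between 1.31% and 2.65% and all intervals overlap.

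The effect of Xbp1 loss on the members was fitted on the 8 member sums, with 2 pools per group. Of 824 genes tested, none passed an edgeR adjusted p of 0.05 (0.0%), 33 had an unadjusted p under 0.05, and DESeq2 passed 1, Fabp4. The 2 pools of each group differed in Xist, at 0 CPM in 1 and 452 CPM or more in the other, so they did not hold the same animals, although the number of animals in a pool is not stated. The p-values measure the spread between these pools, which also differ in library and sex. As no gene passed, each of the following is a value and not a call. With library 2 left out 16 genes passed, of which 1, Xist, remained once the granule-gene cell was left out too, and with library 1 left out none passed. Xbp1 (chr11:5520659-5525893) read 280.4 and 473 CPM in the WT peripheral pools of libraries 1 and 2, 161 and 369.5 in WT mesenteric, 98.2 and 160.0 in Xbp1-KO peripheral and 113 and 32.1 in Xbp1-KO mesenteric. It was lower in the knockout in 4 of 4 pairs, with 161 CPM in the lowest WT pool and 160.0 CPM in the highest Xbp1-KO pool, and the log2 fold change was -1.58 ± 0.56 (edgeR adjusted p = 0.742). As the libraries tag the 3′ end of transcripts and the deleted part is not stated, this level cannot check the knockout by itself.

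No gene that Xbp1 drives passed. Hsp90b1, an endoplasmic reticulum chaperone, read 589 and 394 CPM in the WT peripheral pools of libraries 1 and 2, 563 and 452 in WT mesenteric, 458 and 274 in Xbp1-KO peripheral and 169 and 193 in Xbp1-KO mesenteric, lower in the knockout in 4 of 4 pairs (-0.97 ± 0.32, edgeR adjusted p = 0.723). Of 9 tested endoplasmic reticulum targets of XBP1, 1 had a fold change above 0, with a median of -0.33 (all genes 0.00), and without the granule-gene cell 2 of 9 did, with a median of -0.14. Without library 1, it was 2 of 7 (median -0.06). Summed over the 39 genes of that list, the knockout was lower in 3 of 4 pairs, and in the mesenteric pair of library 2 it was higher, with 4661 against 4229 CPM. The highest sum, 7879 CPM in WT peripheral of library 1, includes the granule-gene cell. Ncl, the nucleolar protein nucleolin, had a fold change of -0.99, which became -0.60 without that cell, since its WT peripheral pool of library 1 went from 1009 to 494 CPM. Eif5a and Pafah1b1 stood at -0.72 and -1.15.

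On the other side, Fabp4 came nearest to the threshold. It read 813 and 552 CPM in the WT peripheral pools of libraries 1 and 2, 3472 and 2135 in WT mesenteric, 4439.9 and 7498 in Xbp1-KO peripheral and 4081 and 1864 in Xbp1-KO mesenteric, higher in the knockout in 3 of 4 pairs (1.58 ± 0.30, edgeR adjusted p = 0.0862), and its adjusted p was 0.468 without the granule-gene cell. Peripheral nodes carried the difference in both libraries, while in mesenteric nodes the knockout was higher in library 1 and lower in library 2. The test of that difference between tissues gave -2.98 ± 0.61 on the log2 scale (mesenteric minus peripheral, edgeR adjusted p = 0.149), and no gene of 824 passed it (0.0%). Unadjusted, 21 genes were under 0.05, and DESeq2 passed 1, again Fabp4. Hspa1a (1.58 ± 0.47), Btg2 (1.04 ± 0.32), the chemokine Cxcl9 (1.72 ± 0.55) and Crip1 (0.98 ± 0.31) were the other 4 of lowest p among fold changes above 0. Hspa1a shares nearly identical sequence with Hspa1b, so its counts are uncertain.

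Among dissociation response genes, all 16 tested had a fold change above 0 in the knockout, with a median of 0.68 (all genes 0.00), although none passed. This rested on library 2, where 15 of 15 were above 0 (median 1.34), while in library 1 it was 8 of 16 (median 0.02). All other kept blood cells of library 2 also held more of the summed list in the knockout, with 37881 against 30780.0 CPM in peripheral and 53711 against 27620.0 CPM in mesenteric nodes, where members read 17510.0 against 14390.0 and 53486 against 10716 CPM. In library 1 those other cells read 25827 against 28419 CPM in peripheral and 29243 against 21219 CPM in mesenteric nodes. The part of this list in the values above was not tested. In the interaction all 16 were above 0 as well, with a median of 1.56, and Junb (2.03 ± 0.54), Ier2 (2.39 ± 0.62), Klf4 (2.46 ± 0.83) and Atf3 (3.00 ± 1.04) were among the 5 of lowest p, with Scand1 (1.99 ± 0.67). Atf3 read 794 and 237 CPM in the WT peripheral pools of libraries 1 and 2, 253 and 82.1 in WT mesenteric, 360.0 and 846 in Xbp1-KO peripheral and 479 and 2636 in Xbp1-KO mesenteric, so that the Xbp1-KO mesenteric pool of library 2 stood above all others. Below 0 the lowest p, after Fabp4, belonged to Clu (-2.57 ± 0.92), Fabp5 (-2.49 ± 0.94), Eif4g2 (-1.98 ± 0.69) and Cd200 (-1.50 ± 0.58). Transport genes had fold changes above 0 in 8 of 9 cases for genotype (median 0.25) and in none of 9 for the interaction (median -1.04).

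Between tissues, again none of 824 genes passed (0.0%), 36 had an unadjusted p under 0.05, and DESeq2 passed 2, Cxcl12 and Ctla2a. With library 1 left out 5 genes passed, and with library 2 left out 19, or none without the granule-gene cell. Ctla2a, a protease inhibitor, read 813 and 197 CPM in the WT peripheral pools of libraries 1 and 2, 1460.1 and 2792 in WT mesenteric, 1080.0 and 640.1 in Xbp1-KO peripheral and 2111 and 3054 in Xbp1-KO mesenteric, lower in peripheral nodes in 4 of 4 pairs with no overlap (-1.70 ± 0.36, edgeR adjusted p = 0.110). Cxcl12 read 429.9 and 118 CPM in the WT peripheral pools of libraries 1 and 2, 1230.2 and 1929.7 in WT mesenteric, 447 and 1006 in Xbp1-KO peripheral and 1492 and 1382 in Xbp1-KO mesenteric, likewise lower in peripheral nodes in 4 of 4 pairs with no overlap (-1.63 ± 0.36, edgeR adjusted p = 0.110). Without the granule-gene cell both adjusted p-values were 0.546. Id3, Hspa1a and Cd74 were also below 0 (-1.49, -1.64 and -3.07). Cd74 read 103 and 0 CPM in the WT peripheral pools of libraries 1 and 2, 46.0 and 1724 in WT mesenteric, 76.4 and 22.9 in Xbp1-KO peripheral and 197 and 611 in Xbp1-KO mesenteric, lower in peripheral nodes in 3 of 4 pairs, and 41 of the 42 UMIs in WT mesenteric of library 2 lay in the single cell described above. With peripheral and mesenteric pools of the same library and genotype paired, a fit added after the data were seen, again no gene passed and 48 had an unadjusted p under 0.05.

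Higher in peripheral nodes, without passing, were Itih5, an extracellular matrix stabiliser, and cell division genes. Itih5 read 542 and 986 CPM in the WT peripheral pools of libraries 1 and 2, 138 and 164 in WT mesenteric, 807 and 343 in Xbp1-KO peripheral and 169 and 386 in Xbp1-KO mesenteric, higher in 3 of 4 pairs (1.72 ± 0.39, edgeR adjusted p = 0.110). Hmgb2 stood at 1.71 ± 0.39 and 1.44 without the granule-gene cell, and turned to -0.10 once cells with Mki67 or Top2a were left out. H2afz and Stmn1 stood at 1.14 and 1.93, and Cxcl9 at 1.94 ± 0.54. Of 14 tested tip and sprouting genes, 6 had a fold change above 0 between tissues (median -0.04) and 7 between genotypes (median -0.02), beside 0.03 and 0.00 for all genes. Without the granule-gene cell it was 9 (median 0.04) and 4 (median -0.11).

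**Figure D5:**
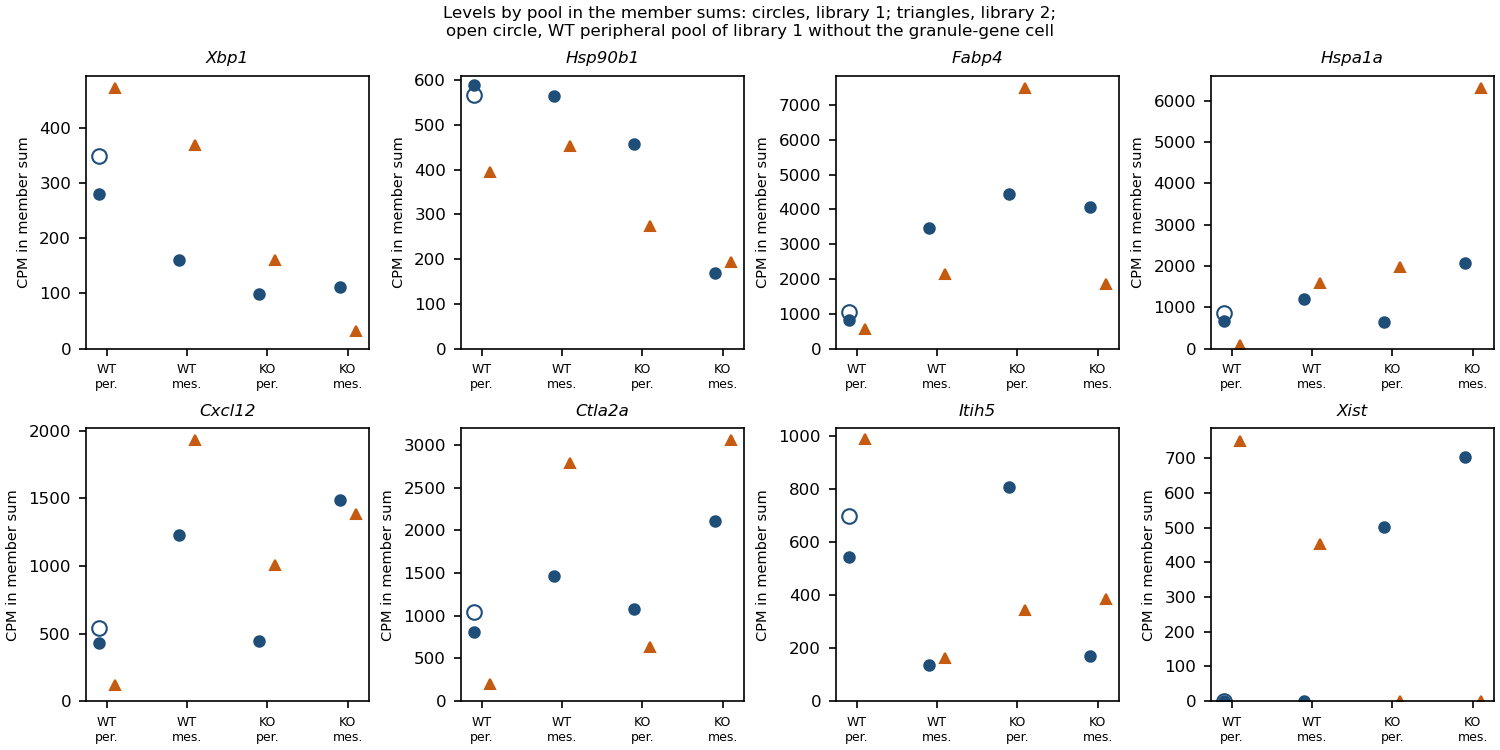
Level of 8 genes in the member sum of each pool, in CPM, by genotype and tissue; circles are library 1, triangles library 2, and the open circle is the WT peripheral pool of library 1 without the granule-gene cell. Xbp1 is lower in all 4 Xbp1-KO pools, Cxcl12 and Ctla2a are lower in all 4 peripheral pools, and Xist is at 0 in 4 pools whose genotype differs between the libraries.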

How the data were processed

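The deposited files hold raw UMI counts per gene and cell barcode for 2 libraries of endothelial cells, with 4 hashtag features each, and no normalization by the authors. The matrices were written by Cell Ranger 6.0.1 per the file headers, while the submitters' processing notes name version 6.1 and the mouse build mm10. The labels' protocols name the kit version differently in separate places, so it is not given here. Of 32285 gene identifiers, 32235 were found in GENCODE M21 (GRCm38), which gave the coordinates.

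From 10612 barcodes, 9919 were kept with at least 500 genes, at most 10% mitochondrial UMIs and a top hashtag of at least 10 UMIs and at least 3 times the next. This removes doublets across pools. Doublets within a pool remain, as no doublet caller was run, and a fit without cells of very high depth was an alternative. Raw counts were summed per pool and subset (at least 5 cells) and tested with edgeR 4.0.16 in R 4.3.3 (TMM, filterByExpr, quasi-likelihood F test, Benjamini-Hochberg adjustment over all genes tested, threshold 0.05), with the pool as a block between subsets and 4 group means between conditions. The scripts were checked on simulated data. The SE is the log2 fold change divided by the root of F. DESeq2 1.42.0 was an alternative. Cells were read with scanpy 1.11.5 and scipy 1.17.1. Neighbours used 30 principal components of 2000 variable genes.

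The members and gene lists were chosen with earlier results of these data known. Named genes were the 12 with the largest change in each direction among those that passed, with at least 30 CPM and 1 direction in every pool, up to 6 that passed from each list, and, for conditions, the 5 of smallest p in each direction. A single gene among those that the rule names is not reported here. Other alternatives were a panel sum of at least 3, stricter hashtags (20 UMIs, ratio 5), no UMI of other cell types, no dividing cells, no filter on low counts, thinning to 2000 UMIs and each library left out. The Enpp2 comparison and the leaving out of granule-gene cells were chosen after the data were seen. Sums of the same library deviated together only in part over 824 genes (correlations of 0.24 and 0.22 between the tissues of WT and of Xbp1-KO, and -0.001 to 0.11 in the other 4 pairs of pools), so library, or library with genotype between tissues, served as a block only as an alternative. The binomial intervals, from which the counting intervals of ratios were also computed, cover counting error only.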

Additional observations from a re-analysis of the deposited data

Results flagged for a closer look

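For 14 of the named genes, a single member sum stood apart from the other 7 by Dixon's test, a gap that chance gives in about 1 of 20 groups. The number of genes put to this test is not given here, so the 14 cannot be set against that rate. In WT mesenteric of library 2, the smallest sum, Slc6a6 and Lifr each reached 205 CPM (5 UMIs), where the others held at most 64.3 and 96.4 CPM. Plpp1 reached 411 CPM there (others 64.3 to 183), Plpp3 1478 CPM (383 to 900.0) and Apoe 1150.0 CPM (158 to 450.4). All 5 were lower in members in the subset comparisons, so that this pool stood nearest to the other cells. In WT peripheral of library 2, Rbp7 read 788 CPM (82.1 to 295 in the others), Lamb1 552 CPM (160.0 to 333), Nrros 434 CPM (45.7 to 164) and Nos2 394 CPM (32.1 to 197). In Xbp1-KO peripheral of library 2, Cldn5 read 1257 CPM (393 to 788) and Ehd4 617 CPM (118 to 321). In library 1, Nes read 425 CPM in WT mesenteric (78.8 to 164) and Msmp 309.6 CPM in Xbp1-KO mesenteric (32.1 to 142). Ckb had a single UMI, 10.9 CPM, in Xbp1-KO peripheral, and 0 elsewhere, a pattern that this test flags in any gene, so nothing is read from it.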

How the results depend on the processing

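The number of genes that passed against Penk cells (305) became 194 without cells of very high depth, 532 with no filter on low counts, 123 after thinning and 66 to 318 with 1 library left out. Against Scgb3a1 cells (364) the same settings gave 218, 630, 122 and 44 to 415, and against all other kept cells (495) DESeq2 gave 299, thinning 250 and 1 library left out 135 to 406. Against Enpp2 cells (360) the range was 26 to 314. With library 1 and the granule-gene cells both left out, 66, 44, 138 and 23 genes passed against Penk, Scgb3a1, all other and Enpp2 cells. The other settings moved these counts by under 1.5 times. No condition had a gene past the threshold in the fit reported. For tissue, DESeq2 passed 2 genes, a panel sum of at least 3 passed 5, leaving out dividing cells 2 and no filter 4, and 1 library left out passed 5 to 19 (5 and 0 without the granule-gene cells as well). For genotype, DESeq2, the panel sum of at least 3 and stricter hashtags passed 1 gene each, and 1 library left out 0 to 16 (0 and 1 without the granule-gene cells). For the interaction, DESeq2 passed 1 gene, the panel sum of at least 3 passed 2 and leaving out dividing cells 1. The interaction without a library leaves no residual degrees of freedom and was given no value.

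The difference in share between genotypes, -0.12 points, turned to 0.0814 without cells holding UMIs of other cell types and to 0.45 after thinning, and lay between -0.76 and 0.52 with 1 library left out. That between tissues, 0.0847 points, turned to -0.0532 and -0.25 in the same settings, to -0.0755 without cells of very high depth, to -0.26 without dividing cells and to -0.30 as a share of all cells that passed the filters, and lay between -0.0356 and 0.21 with 1 library left out. Among genes that had not passed, Dll4 turned to -0.041 with no filter and -0.065 after thinning and lay between -0.38 and 0.40 with 1 library left out, and Esm1 turned to 0.043 without cells of very high depth and lay between -0.78 and 0.14. Robo4 lay between -0.39 and 0.59 and Unc5b between -0.38 and 0.64 with 1 library left out. Hmgb2 between tissues turned to -0.10 without dividing cells. The cause of these shifts was not tested.

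With the library as a replicate block, 0 genes passed for tissue, genotype and interaction, as without it, and with library and genotype as the block 0 passed for tissue and interaction. With no replicate block between subsets, 297 genes passed against Penk, 305 against Scgb3a1, 435 against all other and 312 against Enpp2 cells. The member sums of library 2 held 6 to 9 cells each, which limits what single pools and their differences can show.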
